A study of Mus musculus with 54 samples.

Results

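Cryopreservation of dissociated kidney cells was examined in 6 of the 54 samples of the study, chosen by strain, dissociation protocol and age: 3 libraries of freshly loaded cells and 3 libraries of cryopreserved cells from whole kidneys of wild-type female Balb/c mice, untreated former breeders of 15 weeks. All kidneys were dissociated on ice with a *B. Licheniformis* protease active in the cold. Fresh suspensions were loaded on the 10x Chromium instrument directly, and the cryopreserved ones were frozen in fetal bovine serum, RPMI-1640 and DMSO, stored for 2 weeks in liquid nitrogen and thawed at the temperature of the body before loading. All 6 libraries used the 10x 3′ chemistry of version 3, and they hold 21221 of the 175959 cells and nuclei of the 10x libraries of the study. Fresh and cryopreserved cells were loaded in separate runs, so storage and run cannot be told apart, and the labels do not say which fresh and which cryopreserved library came from the same mouse. Values are given for fresh replicates 1, 2 and 3 and then for cryopreserved replicates 1, 2 and 3.

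The nephron filters blood in the glomerulus, where podocytes, endothelial cells and mesangial cells meet, and then returns water, salt, glucose and amino acids along the tubule. The proximal tubule makes up most of the renal cortex and carries most of this reabsorption, which it pays for with mitochondrial oxidation of fatty acids. The thick ascending limb, distal convoluted tubule and connecting tubule adjust salt, calcium and magnesium, and principal and intercalated cells of the collecting duct adjust water, potassium and acid. Freezing exposes cells to ice, osmotic shifts and DMSO, and thawing exposes them to a return to warmth; immediate-early genes such as *Fos*, *Jun* and *Egr1* are switched on within minutes of many such disturbances without new protein synthesis.

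The fresh libraries held 4606, 7928 and 4413 cells and the cryopreserved libraries 1543, 1543 and 1188. Their unique molecular identifiers (UMIs, each standing for a captured transcript) summed to between 16622862 and 27869324 per fresh library and between 4734070 and 6108639 per cryopreserved library. Each fresh file listed 14310 genes and the cryopreserved files 12738, 12518 and 12270, and the 11947 genes listed in all 6 were compared. A gene was listed in a cryopreserved file only if at least 10 of its cells held a UMI, so genes rare after storage were left out of every comparison, and 1317 genes were listed in the 3 fresh files only. Of the genes compared, 70 were at 0 in at least 1 fresh library, where genes in 1 to 9 cells are rarer than genes at 0, so such a 0 may stand for a gene under the minimum; 49 of the 70 passed as higher and 0 as lower in library sums (edgeR), and the text gives no fold change of any of them, although *Ncr1* and *Il1rl1* among them help to describe clusters and *H2-Ob* is counted in a list. Replicates of a group differed by more than sampling noise (chi-square per degree of freedom between 4.50 and 14.2 for pairs), and 55 cell barcodes occurred in more than 1 library. With 3 libraries against 3, an exact two-sided permutation test cannot give a p under 0.1.

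Cells were grouped into 53 clusters and named from marker genes, which gave 15 classes, all of them known kidney or blood cell types. A class is called macrophage-like, for example, since it rests on markers. No cluster met the rule for fibroblasts, dendritic cells, neutrophils, plasma cells, urothelium or erythroid cells, and 8 clusters with 3092 cells stayed unnamed. Of these, a pair led by the glutathione transferase *Gsta2* and its relative *Gm10639* held 2261 cells, of which 24 were cryopreserved, at median depths of 602 and 1030 UMIs per cell. Both genes are also among the leading genes of a proximal tubule-like cluster. Another unnamed cluster carried proximal tubule markers such as *Lrp2* and *Cubn*. The proximal tubule-like share may therefore be understated, mainly in the fresh libraries.

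Cryopreserved libraries held far fewer proximal tubule-like cells. Their share of all cells was 38.6%, 42.2% and 40.0% in the fresh libraries and 4.21%, 6.03% and 5.05% in the cryopreserved libraries, and the ranges were far apart. The means were 40.3% ± 1.81 and 5.10% ± 0.908 (SD, n = 3 each), a share 7.89-fold lower after storage (log2 fold change -2.98, SE 0.26, edgeR adjusted p = 1.32e-06). Counting error was small beside this gap: the Wilson 95% interval was 37.2% to 40.0% for fresh replicate 1 and 3.32% to 5.33% for cryopreserved replicate 1. Connecting tubule-like cells (11.4%, 8.80% and 6.89% against 2.53%, 3.95% and 3.03%; log2 -1.51, adjusted p = 0.000436) and thick ascending limb-like cells (6.77%, 8.39% and 7.18% against 3.37%, 5.51% and 3.03%; -0.90, 0.00967) also took lower shares. Distal convoluted tubule-like cells took 2.74%, 3.34% and 2.90% of fresh and 1.75%, 2.20% and 2.53% of cryopreserved cells, a difference that did not pass the test (-0.48, adjusted p = 0.101) but did among cells of at least 1500 UMIs (-0.83, 0.0233).

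The other 11 classes took larger shares after storage, so that 14 of 15 classes passed the test. Endothelial-like cells went from 7.23%, 5.41% and 6.37% to 22.8%, 23.8% and 27.5% (log2 1.96, adjusted p = 3.05e-05) and became the largest class. Mesangial and mural-like cells, the contractile cells around glomerular capillaries and arterioles, went from 2.45%, 1.17% and 1.36% to 9.46%, 6.03% and 7.91% (2.24, 6.83e-05). Macrophage-like cells went from 3.80%, 3.37% and 5.21% to 10.6%, 11.6% and 11.03% (1.43, 0.000293). In the collecting duct, intercalated cell-like shares went from 3.91%, 3.23% and 1.99% to 12.1%, 7.58% and 9.43% (1.67, 0.000306) and principal cell-like shares from 5.65%, 3.71% and 3.49% to 11.5%, 7.97% and 10.4% (1.22, 0.00132). Podocyte-like cells, the filtering epithelium of the glomerulus, differed less (2.17%, 2.32% and 2.95% against 3.63%, 6.03% and 3.28%; 0.81, 0.0205), and did not pass the test among cells of at least 1500 UMIs (adjusted p = 0.104). With TMM factors added to the cell numbers, which assume that most classes keep their share, 6 of 15 classes passed, and the changes of macrophage-like (-0.0445), podocyte-like (-0.672) and principal cell-like shares (-0.202) turned sign and did not pass.

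Thin limb-like cells (0.890%, 0.669% and 0.816% against 2.79%, 2.59% and 3.70%; log2 1.93, adjusted p = 6.83e-05) and the lymphoid classes were also larger shares. NK cell-like shares went from 0.803%, 0.782% and 0.680% to 2.20%, 2.46% and 3.28% (1.79, 0.000112), T cell-like shares from 0.347%, 0.202% and 0.317% to 1.75%, 1.49% and 0.505% (2.18, 0.000537), and B cell-like cells from 0, 9 and 3 cells to 25, 19 and 10 cells (4.12, 5.06e-05). The NK cell-like class is a single cluster named on 3 markers (*Nkg7*, *Klrk1* and *Ncr1*, the last listed at 0 in fresh replicates 2 and 3), and 7 T cell markers were also raised in it. Monocyte-like cells were uneven within both groups (0.434%, 0.0252% and 0.408% against 1.56%, 2.59% and 0.589%; 2.61, 0.00365). Shares sum to the whole, so a class can take a larger share merely because another shrank, and cell numbers per kidney were not measured here.

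**Figure D1:**
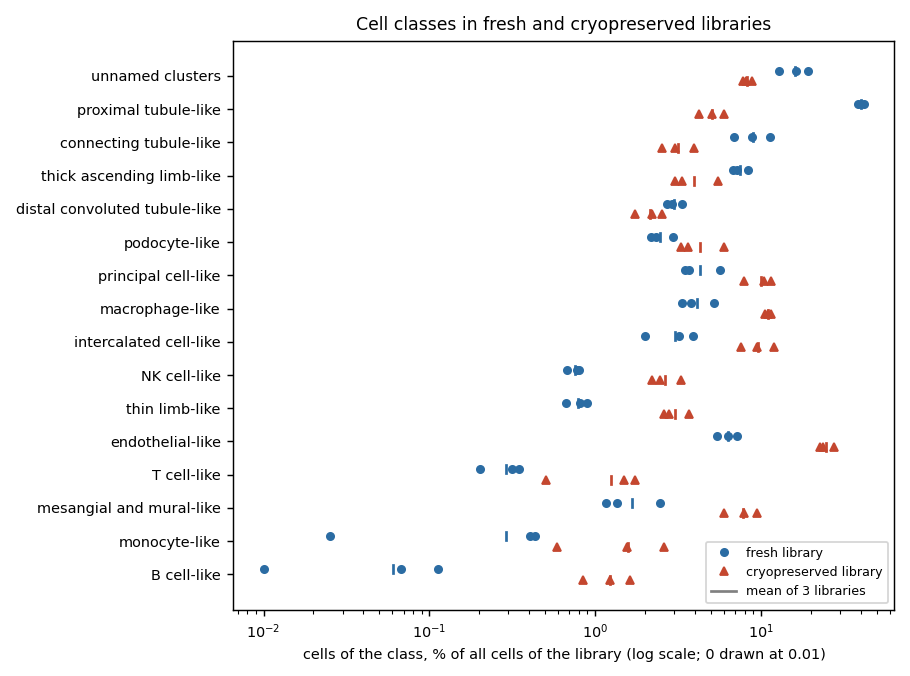
Share of all cells (%, horizontal log axis, with 0 drawn at 0.01) taken by each class and by the unnamed clusters, with a circle for each fresh library, a triangle for each cryopreserved library and a bar at the mean of 3 libraries. Proximal tubule-like cells fall from 38.6% to 42.2% in the fresh libraries to 4.21% to 6.03% in the cryopreserved ones, while endothelial-like cells move from 5.41% to 7.23% up to 22.8% to 27.5%.

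With proximal tubule-like and unnamed cells set aside, the distal tubule still took a smaller share. Connecting tubule-like cells were 23.4%, 21.2% and 16.95% of the remaining fresh cells and 2.88%, 4.65% and 3.48% of the remaining cryopreserved cells (log2 -2.48, adjusted p = 3e-05). Thick ascending limb-like (-1.90, 0.000368) and distal convoluted tubule-like cells (-1.48, 0.000828) were also lower on this denominator. Endothelial-like (0.98, 0.00317), mesangial and mural-like (1.27, 0.00317), thin limb-like (0.94, 0.0116), intercalated cell-like (0.69, 0.0466), monocyte-like (1.64, 0.0480), B cell-like (3.12, 0.000828), NK cell-like (0.80, 0.0273) and T cell-like shares (1.19, 0.0294) were higher. Macrophage-like (0.42, 0.167), principal cell-like (0.24, 0.386) and podocyte-like cells (-0.20, 0.544) did not pass the test, so 11 of 14 classes did. Leaving out each library in turn left 6 to 8 of 14, TMM factors 4, and for intercalated cell-like, monocyte-like, NK cell-like, T cell-like and thin limb-like shares there were at least 2 libraries whose omission, 1 at a time, ended the call. Among cells of at least 1500 UMIs monocyte-like (adjusted p = 0.0544), NK cell-like (0.157) and T cell-like shares (0.111) did not pass and the macrophage-like share did (0.80, 0.0153).

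Clusters within a class also shifted. Among proximal tubule-like cells the 4 clusters with *Slc5a2*, the glucose carrier of the early segment, among their leading genes together held 2752 of 6888 fresh cells (39.95%) and 136 of 218 cryopreserved cells (62.4%). They did not move alike. One that also has the neutral amino acid and phosphate carriers *Slc6a19* and *Slc34a3* among its leading genes held 10.2%, 11.96% and 7.41% of the class in the fresh libraries and 23.1%, 43.01% and 35% in the cryopreserved libraries. Another with the same carriers, in which 26.5% of cells were marked as doublets, held 8.89%, 9.84% and 7.19% against 13.8%, 22.6% and 6.67%, which overlap. The remaining ones held 12.95% of all fresh and 11.01% of all cryopreserved cells of the class, and 7.74% and 0.917%. The cluster led by *Prlr*, *Slc22a6* and *Slc6a18* held 952 fresh cells (13.8%) and 8 cryopreserved cells (3.67%). Among intercalated cell-like cells, the cluster led by the acid-secreting markers *Slc4a1* and *Aqp6* held 129 of 524 fresh cells (24.6%) and 298 of 415 cryopreserved cells (71.8%). The cluster led by *Slc26a4* of base-secreting cells held 127 fresh and 71 cryopreserved cells. A shallow cluster led by *Hmx2*, with *Slc26a4* as a marker and a median of 1076 UMIs, held 258 fresh (49.2%) and 11 cryopreserved cells (2.65%). A connecting tubule-like cluster with a median depth of 1317.5 UMIs held 50.9% of that class in the fresh libraries and 11.8% in the cryopreserved ones. In thick ascending limb-like cells the largest cluster held 63.4% of fresh and 92.5% of cryopreserved cells, a cluster with a median of 1036.5 UMIs held 31.1% and 7.51%, and a cluster in which 98.6% of cells were marked as doublets held 70 fresh cells and 0 cryopreserved ones. In principal cell-like cells a cluster with a median of 1021.5 UMIs held 41.4% of fresh and 4.47% of cryopreserved cells, and the cluster led by *Aqp4* 28.7% and 57.2%. The gene comparisons within these classes below are therefore between different mixtures of clusters.

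Shallow cells were rarer after storage. Cells with fewer than 1000 UMIs made up 12.9%, 22.8% and 20.5% of the fresh libraries and 2.46%, 2.92% and 2.86% of the cryopreserved libraries, a mean difference of -16.0 percentage points without overlap (exact permutation p = 0.1, the smallest this design allows, adjusted p = 0.16). Within classes the same share was lower without overlap in 6, for example 22.3% to 39.3% against 2.45% to 6.11% in macrophage-like cells. At a fixed 1000 UMIs per cell, median genes per cell were 467 to 472.5 in fresh and 460 to 468 in cryopreserved libraries over all cells, and these ranges overlap. They did not overlap in proximal tubule-like cells (456 to 460 against 426 to 437) or in the other named cells together (485 to 497 against 458 to 469), each with the smallest two-sided exact permutation p these libraries allow (0.1; adjusted p = 0.16).

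The hemoglobin genes of red blood cells were listed in the fresh files only. *Hbb-bs*, an adult beta globin, gave 15236, 17178 and 22500 UMIs in the fresh libraries, in 21.9%, 6.87% and 30.7% of cells, with a median of 1 UMI in the cells that held any. In fresh replicate 1, 26.3% of macrophage-like, 22.7% of proximal tubule-like and 18.3% of endothelial-like cells held an *Hbb-bs* UMI, none of which are cells that make hemoglobin. *Hba-a1*, *Hba-a2* and *Hbb-bt* showed the same contrast, with 3220, 3909 and 6192 UMIs for *Hba-a1*. No hemoglobin gene was listed in a cryopreserved file, which at the listing minimum means under 0.648%, 0.648% and 0.842% of cells with a UMI.

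Transcripts of the proximal tubule behaved likewise in cells of other types. A list of abundant proximal tubule transcripts, among them *Gpx3* (a secreted glutathione peroxidase), *Miox* (the first enzyme of inositol breakdown) and *Kap* (an androgen-driven kidney protein), took 3.28% to 3.82% of all UMIs in the fresh libraries and 0.661% to 0.939% in the cryopreserved ones. In named cells outside the proximal tubule it took 0.933% to 1.13% against 0.359% to 0.401%. It took 4.26% to 4.52% against 1.05% to 1.98% in unnamed cells, which cannot be read as cells of other types. The pair of clusters led by *Gsta2* and *Gm10639*, which also lead a proximal tubule-like cluster, held 2261 of 3092 unnamed cells. Of the 356 cryopreserved unnamed cells they held 24. The list's share was lower without overlap in 13 of 14 classes, the exception being NK cell-like cells (0.265% to 0.512% against 0.148% to 0.692%). It was 0.477% to 0.602% against 0.135% to 0.183% in endothelial-like cells, 3.24-fold lower, and 0.683% to 1.18% against 0.246% to 0.277% in macrophage-like cells, 3.32-fold lower. Inside proximal tubule-like cells themselves the list took 5.51% to 5.54% against 4.82% to 5.24%, which is 1.10-fold lower.

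**Figure D2:**
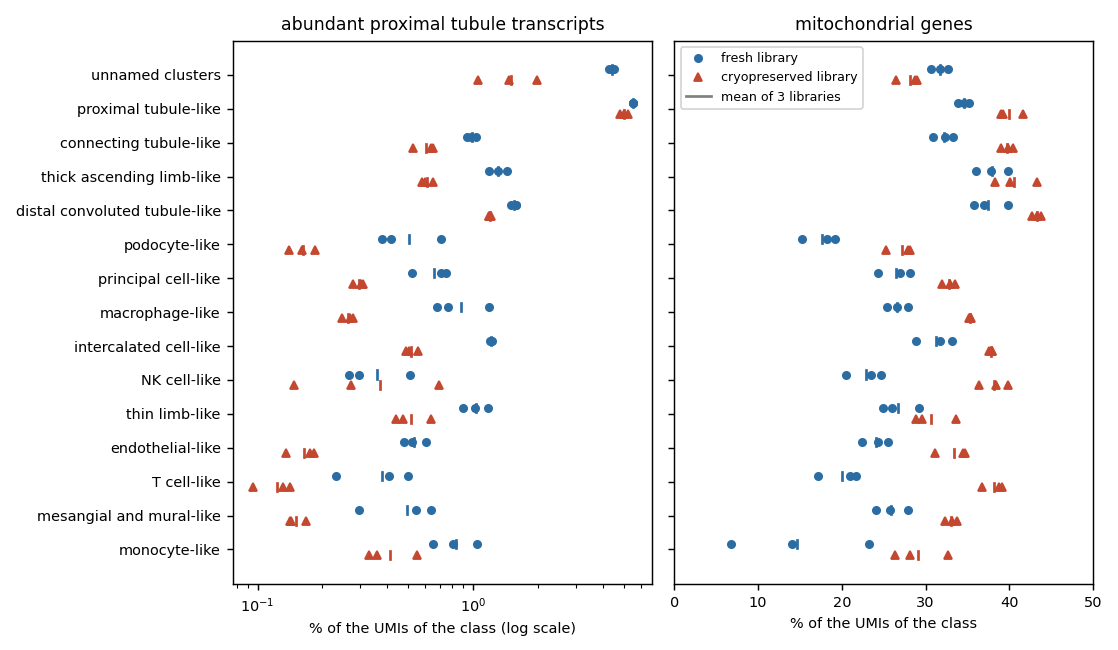
Share of the UMIs of each class (%, horizontal axes, a log axis on the left) taken by abundant proximal tubule transcripts and by mitochondrially encoded genes, with a circle for each fresh library, a triangle for each cryopreserved library and a bar at their mean. The proximal tubule list sits lower after storage in 13 of 14 classes, and the mitochondrial share sits higher in 12 of 14; the unnamed clusters, drawn at the top, sit lower on both.

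Genes were then compared within each class, on UMIs summed per library and class, in 14 classes with enough cells. Of 66270 pairs of class and gene, 3070 passed edgeR's quasi-likelihood test at an adjusted p of 0.05, 1082 of them higher and 1988 lower after storage. In all, 766 genes were higher and 1079 lower in at least 1 class, 26 of them in both directions in different classes, and 611 and 717 in a single class only. Fold changes are relative to the typical gene of the class (TMM scaling). Scaling by library size alone moved the median gene by more than 0.1 in 9 classes (from -0.110 in connecting tubule-like to -0.527 in T cell-like cells), and the balance of higher to lower calls moved with it.

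The immune classes differed in how many genes could be tested. In macrophage-like cells 75 of 3900 genes (1.92%) were higher and 221 (5.67%) lower; higher genes were 25.3% of the calls, and 7.08% with scaling by library size alone. The 296 calls there fell to 175 without fresh replicate 2 and to 160 without cryopreserved replicate 2. In NK cell-like cells 14 of 1142 genes (1.23%) were higher and 0% lower (100% of calls higher, 16.4% by library size alone); without cryopreserved replicate 1 there were 16 and 10. In T cell-like cells, without cryopreserved replicate 3, which held too few of them, 3.64% of 440 genes were higher and 0.455% lower (88.9% higher, 12.5% by library size alone and 100% by DESeq2). In monocyte-like cells, without fresh replicate 2 and cryopreserved replicate 3, none of 1159 genes passed in edgeR or DESeq2, and 57 had an unadjusted p under 0.05 in edgeR. With no filter on low counts 11 passed in edgeR as higher and 6 as lower, and with scaling by library size alone 1 as higher.

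In endothelial-like cells 0.662% of 7707 genes were higher and 1.99% lower (25% of calls higher, 4.83% by library size alone). In mesangial and mural-like cells 0.304% of 3948 genes were higher and 0.709% lower (30% against 16.1%), and in podocyte-like cells 0.322% of 4652 were higher and 0.473% lower (40.5% against 19.1%). With clusters at the coarser Leiden resolution of 1, podocyte-like cells had 22 higher and 92 lower genes. Leaving out a library moved these counts: the 204 calls in endothelial-like cells became 128, 97 and 127 without fresh replicate 1, fresh replicate 2 and cryopreserved replicate 2, the 40 in mesangial and mural-like cells 17, 20 and 79 without fresh replicate 2, cryopreserved replicate 2 and cryopreserved replicate 1, and the 37 in podocyte-like cells 23 without cryopreserved replicate 3. None of the 10 typing markers of each of these classes passed the test in its class: *Kdr*, the VEGF receptor, was at log2 0.13 (adjusted p = 0.772) and *Emcn* at 0.08 (0.894) in endothelial-like cells, the receptor *Pdgfrb* at 0.56 (0.200) in mesangial and mural-like cells and the slit diaphragm gene *Nphs1* at -0.18 (0.838) in podocyte-like cells. Cells were placed in these classes by the same markers, so a small change in them is partly set by the naming. It is no result on storage, and the same holds for naming markers of other classes given below.

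In proximal tubule-like cells 3.81% of 9478 genes were higher and 8.21% lower (31.7% of calls higher, 42.0% by library size alone and 41.8% by DESeq2). In thick ascending limb-like cells 1.53% of 7521 were higher and 2.82% lower (35.2%, and 23.8% by DESeq2), and in thin limb-like cells 1.04% of 2500 were higher and 3.44% lower (23.2%, and 13.2% by DESeq2). In distal convoluted tubule-like cells 0.106% of 4736 were higher and 0.148% lower (41.7%, 10.3% by library size alone and 17.5% by DESeq2). In connecting tubule-like cells 2.44% of 5809 were higher and 2.38% lower (50.7%, 26.3% and 39.4%). In principal cell-like cells 0.904% of 6861 were higher and 1.66% lower (35.2%, and 9.51% by library size alone), and in intercalated cell-like cells 2.93% of 6417 were higher and 3.54% lower (45.3%, 26.9% by library size alone and 28.6% by DESeq2).

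The counts of the tubule classes also rested on single libraries. In proximal tubule-like cells 361 higher and 778 lower genes became 100 and 474 without cryopreserved replicate 2, and without fresh replicates 1, 2 or 3 the balance turned, to 475 and 447, 513 and 435, and 519 and 489. In connecting tubule-like cells 142 and 138 became 91 and 37 without fresh replicate 2, 148 and 71 without fresh replicate 1, 141 and 58 without fresh replicate 3 and 79 and 189 without cryopreserved replicate 1. The 327 calls in thick ascending limb-like cells fell to 182, 201 and 139 without fresh replicate 1, fresh replicate 3 and cryopreserved replicate 2, and the 112 in thin limb-like cells to 43 and 65 without fresh replicate 1 and cryopreserved replicate 3. The 176 calls in principal cell-like cells fell to 90 and 99 without fresh replicates 1 and 2, and the 415 in intercalated cell-like cells to 229, 266 and 272 without fresh replicates 1, 2 and 3. By DESeq2 the calls in intercalated cell-like cells came to 140, with 40 higher and 100 lower. The 12 calls in distal convoluted tubule-like cells ranged from 1 (without fresh replicate 2) to 46 (without cryopreserved replicate 1).

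Among the genes lower in most classes were transcripts abundant in the proximal tubule. *Miox* was lower in 11 classes (log2 -0.76 to -4.88), *Fxyd2*, the gamma subunit of the sodium pump, in 11 (-0.39 to -2.41), and *Gpx3* in 9 (-1.60 to -3.26). *Gsta2* was lower in 10, as was *Ass1*, an enzyme of arginine synthesis. Genes of other kinds were lower as widely, among them *S100g* of the connecting tubule in 9 and *Cox6a1*, given below, in 10. In thick ascending limb-like cells *Miox* gave 536, 1130 and 388 UMIs in the fresh libraries and 3, 4 and 4 in the cryopreserved libraries (-4.88, adjusted p = 7.93e-09; -3.59 with cells marked as doublets removed). In endothelial-like cells it gave 259, 352 and 264 against 73, 48 and 37 UMIs (-2.47, 1.28e-06), and *Gpx3* 718, 1060 and 810 against 331, 281 and 189 (-1.70, 2.49e-05). Every fresh library was above every cryopreserved library in these cases.

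Of the listed proximal tubule transcripts tested, 17 of 18 were lower in each of endothelial-like, intercalated cell-like, macrophage-like and principal cell-like cells. Their median log2 changes there were -1.78, -2.78, -2.57 and -2.69, against medians between 0.01 and 0.02 over all genes tested in each class. The count was 16 of 18 in connecting tubule-like cells, 15 of 18 in thick ascending limb-like cells, 11 of 17 in mesangial and mural-like cells, 10 of 17 in podocyte-like cells, 9 of 12 in thin limb-like cells, 2 of 15 in distal convoluted tubule-like cells, 1 of 6 in T cell-like cells and 0 of 10 in NK cell-like and in monocyte-like cells. In proximal tubule-like cells 10 of 19 were lower and 1, *Slc34a1*, higher (median -0.46). Part of this list was drawn from genes the study names for cryopreserved cells, so its direction is not independent evidence. Some members were scarce after storage, such as *Fbp1* (185 against 14.3 CPM) and *Ass1* (136 against 11.4 CPM) in macrophage-like cells. Such members may have reached the count minimum for testing through the fresh libraries only, where a call could hardly be other than lower. These counts are therefore uncertain. Many of these classes are not known to make these transcripts. The part of free RNA in the lower values was not tested, and with cells marked as doublets removed the calls outside the proximal tubule came to 110 in place of 132: 17 of 18 in endothelial-like, 16 of 18 in macrophage-like, 15 of 18 in intercalated cell-like, 15 of 17 in principal cell-like, 14 of 18 in connecting tubule-like and in thick ascending limb-like, 7 of 11 in thin limb-like, 6 of 17 in mesangial and mural-like, 5 of 15 in podocyte-like, 1 of 14 in distal convoluted tubule-like and 0 of 5 in T cell-like cells.

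Mitochondrially encoded transcripts took a larger share of UMIs after storage in 12 of 14 classes without overlap. The share was 20.4% to 24.6% in fresh and 36.4% to 39.8% in cryopreserved NK cell-like cells, 17.2% to 21.7% and 36.8% to 39.1% in T cell-like cells, 25.4% to 28.0% and 35.2% to 35.4% in macrophage-like cells, and 33.9% to 35.2% and 38.9% to 41.6% in proximal tubule-like cells. Thick ascending limb-like and thin limb-like cells overlapped. Cells with a high share of mitochondrial UMIs had been removed from all files by the authors, so these shares are of the cells kept. Over all cells together the share was 31.5% to 33.8% in fresh and 34.6% to 34.98% in cryopreserved libraries.

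Among the 13 genes of the mitochondrial genome that code for respiratory chain proteins, none was lower in any class, and this held with every scaling and with DESeq2. Of 7 complex I genes and 6 genes of the other complexes, 6 and 6 were higher in NK cell-like cells, 4 and 6 in macrophage-like cells, 5 and 6 in podocyte-like cells and 3 and 5 in endothelial-like cells. In T cell-like cells 6 of 6 and 6 of 6 tested were higher. Tubule classes had fewer: 3 and 4 in connecting tubule-like and in principal cell-like cells, 2 and 3 in intercalated cell-like, 1 and 2 in proximal tubule-like and in distal convoluted tubule-like, and 1 and 1 in thick ascending limb-like and in thin limb-like cells. Mesangial and mural-like cells had 2 and 4, and monocyte-like cells 0 and 0. With scaling by library size alone the counts were 5 and 6 in NK cell-like, 2 and 5 in macrophage-like, 2 and 4 in podocyte-like and 2 and 4 in endothelial-like cells.

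*mt-Atp8*, a small subunit of ATP synthase, was higher in 13 of 14 classes by log2 1.30 to 2.98, and in 10 classes by DESeq2. It lies at chrM:7766-7969 on the plus strand of GRCm38, spans 204 bases, and its last 43 bases are also the start of *mt-Atp6*, which follows it on the same transcript. The gene is shown because reads in the shared stretch, in capitals, cannot be assigned to either gene by sequence:
mt-Atp8: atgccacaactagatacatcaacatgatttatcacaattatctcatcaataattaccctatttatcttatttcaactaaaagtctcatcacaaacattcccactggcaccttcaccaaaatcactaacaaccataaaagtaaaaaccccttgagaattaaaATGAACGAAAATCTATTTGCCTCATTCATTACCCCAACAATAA

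In endothelial-like cells *mt-Atp8* stood at 159, 175 and 148 CPM (counts scaled to the total of the class in a library) in the fresh libraries and at 940, 364 and 364 CPM in the cryopreserved libraries (log2 2.00, SE 0.29, adjusted p = 0.000628). In proximal tubule-like cells it stood at 281, 259 and 271 against 1681, 868 and 480 CPM, and in macrophage-like cells at 209, 169 and 173 against 955, 402 and 296 CPM. Cryopreserved replicate 1 was the highest library in all of these, and all cryopreserved libraries were above all fresh ones. *mt-Nd5* of complex I was higher in 13 classes (0.73 to 1.88) and *mt-Co1* of complex IV in 11 (0.47 to 1.35); in macrophage-like cells *mt-Nd5* gave 707, 772 and 756 against 1752, 1246 and 1177 UMIs (1.27, 2.89e-05). *mt-Nd5* shares 14 bases with *mt-Nd6* on the opposite strand.

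Several nuclear and noncoding transcripts moved the same way. *Gm42418*, a transcript within a ribosomal RNA repeat at chr17:39846958-39848788 on the plus strand, was higher in 12 classes (0.60 to 2.07), and *AY036118*, which overlaps it by 923 bases on the opposite strand, in 10. The nuclear RNA *Malat1* was higher in 6. *Lars2*, the leucyl-tRNA synthetase of mitochondria, was higher in 9 of the 11 classes where it was tested (0.83 to 2.97). In proximal tubule-like cells *Lars2* gave 288, 399 and 261 UMIs, or 31.3, 25.3 and 31.2 CPM, in fresh libraries and 72, 77 and 39 UMIs, or 271, 148 and 160 CPM, in cryopreserved ones (2.62, SE 0.19, adjusted p = 1.85e-09). Reads from *Gm42418* and *AY036118* are uncertain, since both sit in repeated sequence and overlap.

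**Figure D3:**
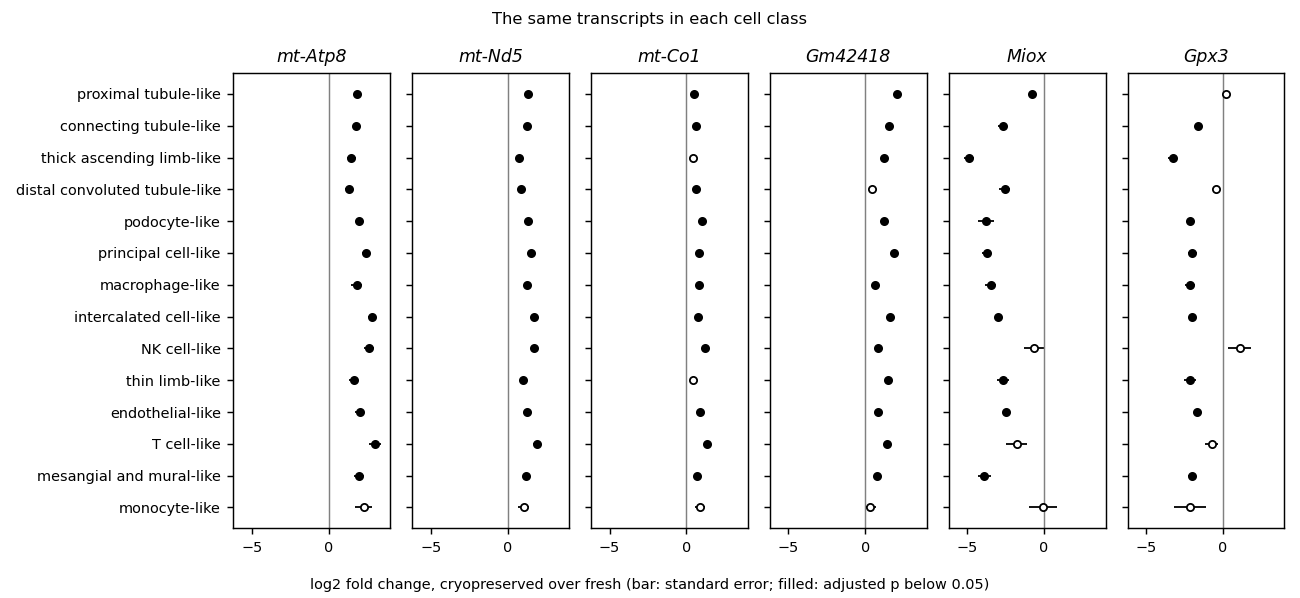
Log2 fold change (cryopreserved over fresh, horizontal axis, bars show the SE, filled points passed the test) of *mt-Atp8*, *mt-Nd5*, *mt-Co1*, *Gm42418*, *Miox* and *Gpx3* in each class. *mt-Atp8* lies at 1.30 or above in the 13 classes where it passed the test, and *Miox* at -0.76 or below in the 11 where it did.

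Nuclear genes of the same respiratory chain went the other way. Of the subunit genes tested, 57 of 77 were lower in proximal tubule-like cells (median log2 -0.60, against 0.00 over all genes), 43 of 73 in macrophage-like cells (-0.80 against 0.02), 41 of 74 in thin limb-like, 32 of 77 in thick ascending limb-like, 18 of 75 in connecting tubule-like, 14 of 77 in intercalated cell-like and 11 of 74 in endothelial-like cells. Over all genes tested, 8.21%, 5.67%, 3.44%, 2.82%, 2.38%, 3.54% and 1.99% were lower in these classes, in the same order. Between 0 and 3 of the subunit genes were lower in each other class, and none was higher in any class. *Cox6a1*, a subunit of cytochrome c oxidase, was lower in 10 classes (-0.64 to -1.35); in macrophage-like cells it gave 132, 168 and 123 UMIs in fresh and 66, 57 and 32 in cryopreserved libraries (-1.08, SE 0.22, adjusted p = 0.00655). This list was assembled after values had been seen. The macrophage-like count was 24 of 73 among cells of at least 1500 UMIs, and the endothelial-like count was 50 with scaling by library size alone and 5 by DESeq2.

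Genes of cytosolic ribosomal proteins took a lower share of UMIs after storage without overlap in 8 of 14 classes, for example 26.2% to 32.8% against 16.8% to 23.8% in T cell-like, 16.1% to 17.6% against 10.6% to 13.7% in NK cell-like and 6.63% to 7.03% against 4.74% to 5.79% in proximal tubule-like cells. Over all cells the mean share was 7.09% in fresh and 7.55% in cryopreserved libraries. In named cells outside the proximal tubule it was 7.03% and 7.22%. A larger mitochondrial share lowers the share of all other genes, and its part here was not tested. By gene, 58 of 93 were lower in proximal tubule-like cells (median log2 -0.48), 16 of 86 in connecting tubule-like and 6 of 88 in thick ascending limb-like cells. Over all genes tested, 8.21%, 2.38% and 2.82% were lower in these classes, in the same order. None of 78 in T cell-like (median 0.00) or of 80 in NK cell-like cells (-0.14) was lower, although with scaling by library size alone 36 and 30 were. *Rpl5*, a ribosomal protein that also binds Mdm2, was higher in endothelial-like, intercalated cell-like and macrophage-like cells. This list was also assembled after values had been seen. Ribosomal genes share sequence with many pseudogenes, so single members are uncertain.

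Immediate-early genes were higher in macrophage-like cells. Of 17 tested there, 14 were higher and none lower, with a median log2 change of 1.35 against 0.02 over all 3900 genes. *Jun*, a subunit of the AP-1 transcription factor, gave 49, 61 and 63 UMIs in the fresh libraries and 433, 359 and 227 in the cryopreserved libraries, or 125, 136 and 130 against 1029, 938 and 628 CPM (log2 2.93, SE 0.20, edgeR adjusted p = 1.11e-06). *Fos*, its partner, gave 3, 2 and 10 against 60, 70 and 23 UMIs (3.70, SE 0.46, 0.000128), and *Egr1*, a zinc finger transcription factor, 7, 3 and 2 against 73, 39 and 29 (3.88, SE 0.44, 5.41e-05). In all of them the lowest cryopreserved library stood above the highest fresh library. *Fos* and *Egr1* reached the count minimum for testing through the cryopreserved libraries only, so the size of their changes is uncertain.

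*Zfp36*, which marks cytokine messages for decay, gave 21, 13 and 23 against 58, 73 and 34 UMIs (1.91, adjusted p = 0.000666), *Dusp1*, a phosphatase of MAP kinases, 5, 18 and 25 against 27, 41 and 37 (1.52, 0.0103), and *Btg2*, a brake on proliferation, 46, 44 and 52 against 123, 138 and 73 (1.61, 0.00023). *Ier2* (1.70, 0.00023), *Junb* (1.66, 8.2e-05), *Jund* (1.35, 8e-05) and *Klf6* (0.77, 0.00803) were also higher, with *Ier5*, *Klf2*, *Zfp36l1* and *Rhob*. *Myc* (0.48, 0.425), *Atf3* (0.48, 0.545) and *Btg1* (0.40, 0.218) did not pass. The count was 14 when doublets were removed, 14 of 16 among cells of at least 1500 UMIs and 11 by DESeq2, and *Dusp1*, *Klf2* and *Rhob* did not pass without cryopreserved replicate 2.

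**Figure D4:**
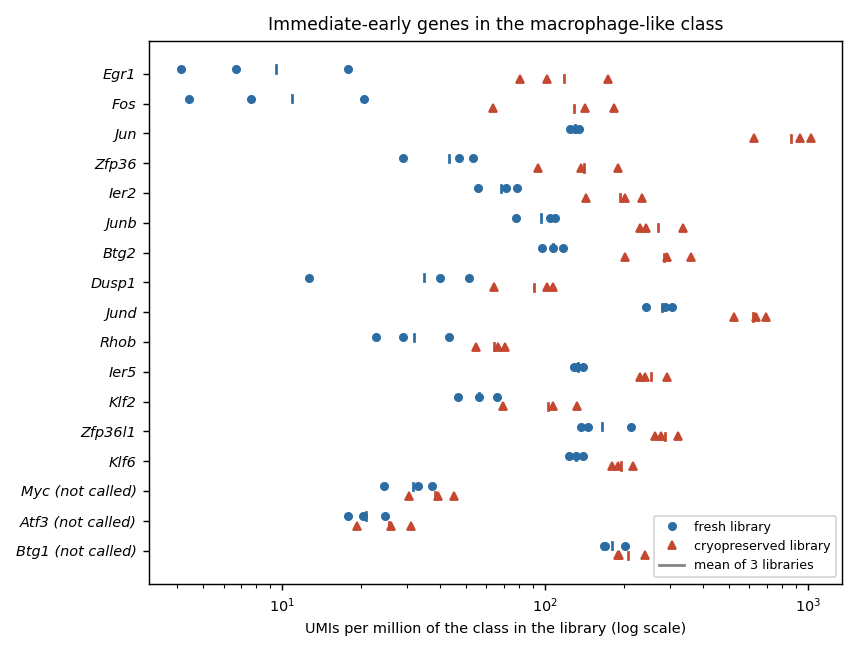
Level (CPM, horizontal log axis) of the 17 immediate-early genes tested in macrophage-like cells, with a circle for each fresh library, a triangle for each cryopreserved library and a bar at their mean. *Jun* lies between 125 and 136 CPM in fresh and between 628 and 1029 CPM in cryopreserved libraries, while *Atf3*, *Myc* and *Btg1* did not pass the test.

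Promoters of these genes were searched, since many immediate-early genes carry sites for the cAMP response element binding protein or for AP-1. RefSeq promoter sequence on GRCm38.p6, the 250 bases before the start of the gene, was searched for 12 of the 14. A chromosome was left out of the search, and the windows of *Egr1* and *Ier2* were not among those searched. The letters TGACGTCA stood in the windows of *Dusp1* (starting at position -143 from the gene start) and *Btg2* (-166), and TGANTCA in that of *Zfp36l1* (-129), on either strand. Thus 3 of 12 windows (25%) held either motif, against 8.45% of all 27025 windows searched. Among the 3028 of these windows that belong to genes tested in macrophage-like cells it was 7.4%. The windows of *Dusp1* (chr17:26508473-26508722, minus strand), *Btg2* (chr1:134079156-134079405, minus strand) and *Jun* (chr4:95052223-95052472, minus strand) are shown, the first pair for their match, in capitals, and *Jun* as the gene with the smallest p and no match:
Dusp1: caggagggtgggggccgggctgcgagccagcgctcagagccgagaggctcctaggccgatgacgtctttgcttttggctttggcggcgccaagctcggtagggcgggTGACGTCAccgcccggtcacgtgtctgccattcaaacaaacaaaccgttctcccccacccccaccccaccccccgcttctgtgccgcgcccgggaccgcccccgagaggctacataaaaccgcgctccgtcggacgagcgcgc
Btg2: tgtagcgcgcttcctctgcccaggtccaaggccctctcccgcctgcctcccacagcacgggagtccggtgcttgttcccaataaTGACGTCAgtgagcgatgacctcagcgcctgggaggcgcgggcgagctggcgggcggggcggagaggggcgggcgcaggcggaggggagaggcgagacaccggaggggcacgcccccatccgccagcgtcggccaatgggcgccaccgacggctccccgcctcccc
Jun: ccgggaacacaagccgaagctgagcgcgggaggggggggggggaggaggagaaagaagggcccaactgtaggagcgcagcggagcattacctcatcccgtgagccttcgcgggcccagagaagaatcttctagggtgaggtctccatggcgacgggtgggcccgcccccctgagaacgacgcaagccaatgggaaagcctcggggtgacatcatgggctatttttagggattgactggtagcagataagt
A match is a description of these letters and no test of binding. Only the stated letters were counted, so near variants were left out, such as TGACATCA in the window of *Jun*. The match in *Zfp36l1* reads TGATTCA.

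Of 12 heat shock chaperones tested in macrophage-like cells, none was higher and 1, the mitochondrial chaperonin *Hspe1*, lower; *Hsp90ab1* was at log2 -0.18 and *Hspa8* at -0.19. *Hspa1a*, the inducible HSP70 gene, was not tested, since too few libraries reached the count minimum (0, 0 and 2 against 38, 58 and 6 UMIs). Of 8 cytokine and NF-kB target genes, *Ccl3*, a chemokine, was higher (20, 12 and 23 against 55, 43 and 22 UMIs; 1.50, adjusted p = 0.00655). None of 13 unfolded protein response genes or 7 p53 and apoptosis genes passed.

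Of 15 macrophage identity genes 5 were higher and none lower, among them *Adgre1*, which encodes F4/80 (0.67, adjusted p = 0.0257), *C1qa* (0.40, 0.0318) and *Apoe* (0.40, 0.0353), while *C1qb* was at 0.24 (0.232). Of 8 MHC class II genes, *H2-Ab1* (0.53, 0.0016), *H2-Eb1* (0.37, 0.0129) and *H2-Aa* (0.34, 0.0284) were higher, and *Cd74*, the invariant chain, was at 0.05 (0.76). Oxidative defence genes were lower in 3 of 6: *Mt1*, a metallothionein, gave 83, 108 and 149 against 58, 38 and 44 UMIs (-0.88, 0.00913), *Gclm* 18, 29 and 24 against 4, 4 and 12 (-1.43, 0.0314) and *Prdx1* 266, 399 and 360 against 177, 136 and 177 (-0.68, 0.014). Without cryopreserved replicate 2, *C1qa*, *Apoe*, *H2-Eb1*, *H2-Aa*, *Mt1*, *Gclm* and *Prdx1* did not pass, nor did *Adgre1* without fresh replicate 1. Among cells of at least 1500 UMIs *H2-Ab1* passed, and *Adgre1*, *C1qa*, *Apoe*, *H2-Eb1*, *H2-Aa*, *Mt1*, *Gclm* and *Prdx1* did not. A single cluster held 444 of 473 cryopreserved and 379 of 672 fresh macrophage-like cells, and a cluster with a median of 784.5 UMIs held 29 and 293.

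*Jun* was also higher in other classes. In mesangial and mural-like cells it gave 22, 21 and 21 against 190, 79 and 117 UMIs (log2 2.33, adjusted p = 2.58e-05) and was the only one of 16 immediate-early genes to pass. In endothelial-like cells 3 of 20 passed: *Jun* (134, 175 and 203 against 468, 403 and 362 UMIs; 1.26, 0.000158), the flow-responsive factor *Klf4* (0.74, 0.00611) and *Jund* (0.59, 0.0212); *Fos* (0, 8 and 14 against 20, 26 and 11 UMIs; 1.35, 0.242) and *Egr1* (-0.62, 0.418) did not. In thick ascending limb-like cells *Jun* was 1 of 2 of 12 to pass (39, 88 and 64 against 33, 44 and 30 UMIs from fewer cells; 1.77, 0.000118), and in principal cell-like cells 1 of 14 (1.26, 0.0217; 0.85 and not past the test without cryopreserved replicate 2). In thin limb-like cells *Junb* was the 1 of 9 (1.78, 0.00984, and not past the test without fresh replicate 1), in NK cell-like cells *Jund* the 1 of 9 (0.84, 0.0437, and not by DESeq2), and connecting tubule-like and intercalated cell-like cells had 1 of 8 and 1 of 15.

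No immediate-early gene passed in proximal tubule-like (of 15), podocyte-like (of 11), distal convoluted tubule-like (of 8), monocyte-like (of 14) or T cell-like cells (of 4). In simulated counts, a log2 change of 1 was called in 12.1% of changed genes in proximal tubule-like and 38.5% in macrophage-like cells. The simulation assumed the same scatter between replicates for every gene and class, not estimated from these libraries. Rates in the real libraries may therefore differ. The other classes named here were not simulated. A missing call therefore does not show that a gene was unchanged. *Jun* in podocyte-like cells was at log2 0.15 and in intercalated cell-like cells at 0.24 (adjusted p = 0.665). The median of the list in monocyte-like cells was 1.17, in a fit of 4 libraries with no gene called, and these genes took 0.216% to 0.389% of their UMIs in fresh and 0.474% to 0.600% in cryopreserved libraries, without overlap. The differences between classes in these changes were not tested. As a share of UMIs over all cells, immediate-early genes took 0.0751% to 0.108% of fresh and 0.212% to 0.270% of cryopreserved libraries.

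In endothelial-like cells *Plec*, a cytoskeletal linker, was higher (log2 0.99, adjusted p = 0.00213), while the adhesion molecule *Vcam1* (51, 66 and 64 against 23, 35 and 40 UMIs; -0.88, 0.0319) and *Ndrg1*, a hypoxia-responsive gene (186, 262 and 176 against 144, 134 and 102; -0.72, 0.0255), were lower; neither passed by DESeq2, and neither these nor *Jund* passed without fresh or without cryopreserved replicate 2. *Ndrg1* was lower in 6 classes in all, by -2.83 in thin limb-like cells (0.00137). The 2 clusters with the glomerular endothelial gene *Ehd3* among their leading genes together held 225 of 1043 fresh (21.6%) and 217 of 1047 cryopreserved cells (20.7%), with 137 and 28 of them in a cluster of 763 UMIs per cell. None of 12 cholesterol synthesis genes, 16 unfolded protein response genes or 14 p53 and apoptosis genes passed.

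Proximal tubule-like cells that remained after storage differed in what they expressed. These comparisons rest on 218 cryopreserved cells against 6888 fresh ones. Among genes of at least 100 CPM in either group the largest decreases were in *Kap* (2664, 2065 and 1578 against 12, 7 and 12 UMIs; log2 -2.79, adjusted p = 4.24e-05), *Napsa*, an aspartic protease of the lysosome (3426, 5411 and 3629 against 17, 42 and 9; -2.61, 1.85e-09), *Klk1*, tissue kallikrein (-2.52, 0.00033), the prolactin receptor *Prlr* (-1.98, 1.35e-06) and *Cd302* (-1.97, 8.64e-06). The largest increases at that level were in *Lars2* (2.62), *Gm42418* (2.07, 1.26e-07), *Gm26917* (1.86), *mt-Atp8* (1.83) and *AY036118* (1.80). Of 10 noncoding RNAs 7 were higher, including *Malat1* (0.99), *Xist* (1.16) and *Neat1* (0.64), and none lower.

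Transporter genes of this segment split evenly. Of 19 tested, 5 were higher and 5 lower, and that split was 5 and 5 under each scaling, by DESeq2, without doublets and among cells of at least 1500 UMIs. *Slc5a2*, the glucose transporter SGLT2 of the early segment, stood at 444, 460 and 391 CPM in fresh and 780, 936 and 795 CPM in cryopreserved libraries (0.90, adjusted p = 1.69e-05). *Slc6a19*, a neutral amino acid transporter, gave 289, 276 and 208 against 479, 455 and 488 CPM (0.80, 0.000262), and the phosphate transporters *Slc34a3* (0.61, 0.0217) and *Slc34a1* (0.37, 0.0352) and the cation exporter *Slc47a1* (0.42, 0.03) were also higher. *Slc22a6*, the organic anion transporter OAT1, gave 185, 224 and 193 against 158, 122 and 90.2 CPM (-0.76, 0.00253), and *Slc6a18* (-0.79, 0.0119), *Slc13a3* (-0.73, 0.0117) and *Slc13a1* (-0.44, 0.0131) were also lower. *Slc5a1*, the glucose transporter SGLT1 of the late segment, gave 90, 228 and 111 UMIs in fresh and 1, 0 and 0 in cryopreserved libraries. It reached the count minimum for testing through the fresh libraries, so its place in the split is uncertain.

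Of 10 genes of the early segment 4 were higher (also *Slc7a8* at 1.07 and *Slc5a12* at 0.56) and none lower, and of 4 genes of the late segment 1 was lower and none higher. The endocytic receptors *Lrp2* (-0.14, adjusted p = 0.493) and *Cubn* (0.29, 0.147) did not pass, nor did *Gpx3* (0.22, 0.244), the most abundant of the listed transcripts. The summed share of the early-segment clusters was itself higher after storage, as given above, and its part in the transporter values was not tested. *Slc5a2*, *Slc6a19* and *Slc22a6* passed with each library left out in turn. The other 7 transporters, *Slc7a8* (0.53) and *Slc5a12* did not pass without cryopreserved replicate 2, which held 93 of the 218 cells.

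Fatty acid oxidation genes were lower in 7 of 18 and higher in 1, against 8.21% lower and 3.81% higher over all genes tested in the class. Among the lower ones were *Cyp4a10* (log2 -1.45), *Acot1* (-1.27), *Acadl* (-1.12), *Acadm* (-0.94, adjusted p = 2.93e-05), *Hadh* and *Hadha*. *Ddit3*, the stress factor CHOP, gave 70, 120 and 65 against 6, 14 and 5 UMIs, or 7.60, 7.59 and 7.76 against 22.6, 27.0 and 20.5 CPM (1.60, 0.0019), the only 1 of 16 unfolded protein response genes to pass. A single call of 16 is near the share of higher calls over all genes of the class. Of 17 chaperones *Hspe1*, *Hspd1*, *Ubb* and *Dnaja1* were lower. Cholesterol synthesis genes (16 tested) passed in both directions, with *Lss* and *Hmgcs1* among those higher and *Cyp51* lower. No direction of that list as a whole is read from these genes. Without cryopreserved replicate 2, *Hadh*, *Ddit3* (1.38), *Dnaja1*, *Lss*, *Hmgcs1*, *Cyp51* and, above, *Neat1* (0.36) did not pass, nor did *Hadha* and *Ubb* without fresh replicate 1.

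*Cd74* and *Vcam1* were called higher in proximal tubule-like cells on the strength of cryopreserved replicate 1. *Cd74* gave 442, 1019 and 439 against 127, 14 and 17 UMIs (log2 1.48, adjusted p = 0.028), and without that replicate its change was -0.510. *Vcam1* gave 9, 25 and 17 against 9, 2 and 1 UMIs (2.86, 0.0103), and without that replicate 1.28, which did not pass.

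**Figure D5:**
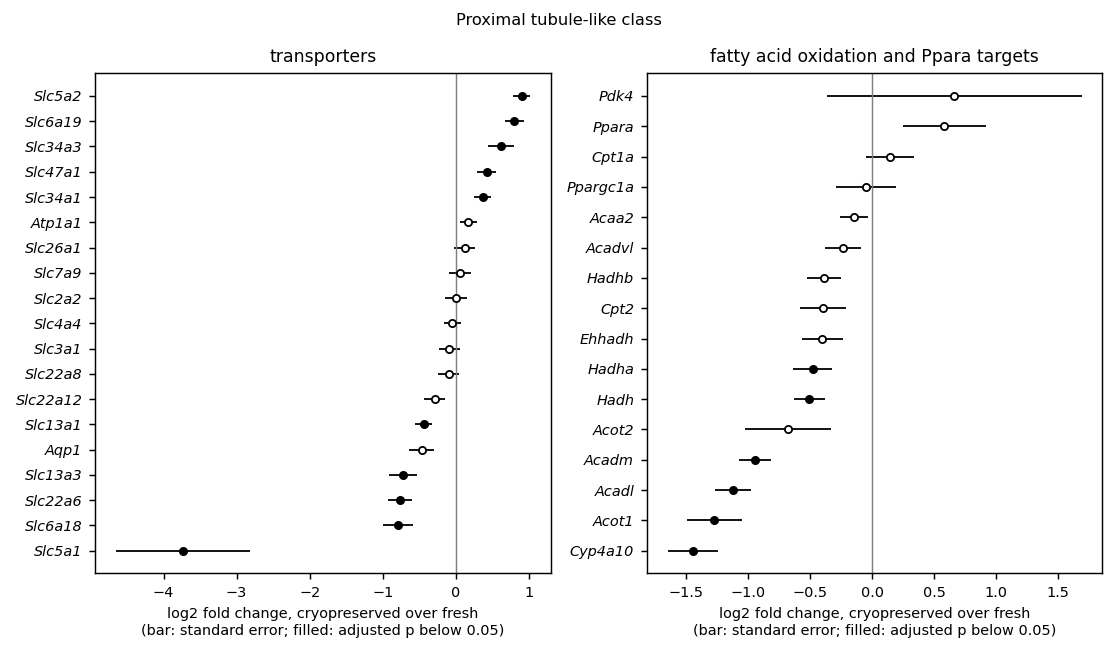
Log2 fold change (cryopreserved over fresh, bars show the SE) of 19 transporter genes and of fatty acid oxidation genes in proximal tubule-like cells, with genes past the test drawn filled. Transporters lie on both sides of 0, from *Slc5a2* at 0.90 to *Slc6a18* at -0.79 and *Slc5a1* beyond it, and fatty acid oxidation genes lie mainly below 0.

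Of 8 tubule injury genes tested in thick ascending limb-like cells, 4 were higher and none lower. *S100a6*, a calcium-binding protein, gave 7, 6 and 41 against 77, 10 and 10 UMIs (log2 3.46, adjusted p = 0.00375), *Lcn2*, the injury marker NGAL, 6, 28 and 20 against 13, 4 and 29 (2.41, 0.018), and *Krt18*, a keratin, 23, 27 and 23 against 15, 12 and 12 (1.69, 0.00473), each from fewer cryopreserved cells; *Clu* was at 0.86 (0.0341), a call lost without cryopreserved replicate 1. The libraries of each group were uneven for the first pair: *S100a6* was at 1.60 without cryopreserved replicate 1 and *Lcn2* at 1.24 without cryopreserved replicate 3, neither past the test, and DESeq2 called 1 gene of the list. *Umod*, the defining product of this segment, was at -0.03 (0.956).

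In intercalated cell-like cells *Slc4a1* (log2 0.93), the basolateral chloride-bicarbonate exchanger, *Aqp6* (1.17) and *Kit* (0.61) were higher and *Slc26a4*, pendrin, lower (-0.63, adjusted p = 0.0117; not past the test without fresh or without cryopreserved replicate 3). These are markers of the clusters whose shares shifted. *Fxyd4* (43, 100 and 12 against 610, 210 and 248 UMIs; 2.51, 2.52e-09) and the water channel *Aqp2* (1.76, 6.59e-07), both of principal cells, were also higher. A cluster in which 31.1% of cells were marked as doublets held 10 fresh and 35 cryopreserved cells of this class, and without doublets the changes were 2.11 for *Fxyd4* and 1.36 for *Aqp2*.

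In connecting tubule-like cells *Slc12a3*, the sodium-chloride cotransporter of the distal convoluted tubule, stood at 490, 634 and 652 CPM in fresh and 2618, 1696 and 1052 CPM in cryopreserved libraries (log2 1.72, adjusted p = 2.39e-07). The calcium-binding *S100g* (-0.66) and *Klk1* (-0.72) were lower and *Calb1* was at 0.12 (0.633). A cluster of this class in which 7 distal convoluted tubule markers were also raised held 447 of 1526 fresh cells (29.3%). Among cryopreserved cells of the class it held 94 of 136 (69.1%). The part of this shift in these values was not tested. *Myh9*, a non-muscle myosin, was higher (1.58, 2.14e-05). Principal cell-like cells had *Lars2* as their largest increase among genes of at least 100 CPM (2.97, 5.06e-09) and, besides proximal tubule transcripts, lower *Umod* (-2.97, 0.000326), which these cells are not known to make.

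The smaller classes added a few genes. *Agtr1a*, the angiotensin receptor, was higher in mesangial and mural-like cells (log2 1.08, adjusted p = 0.0289), *Arl4d* in podocyte-like cells (1.22, 0.0434), *Ogdh*, an enzyme of the citric acid cycle, in distal convoluted tubule-like cells (0.68, 0.0337), and *Gadd45g*, a DNA damage response gene, in thin limb-like cells (1.85, 0.0143). In T cell-like cells the iron store gene *Ftl1* was lower (-0.90, 0.0378). Each of these calls was lost when at least 1 library was left out. The cold-inducible RNA-binding genes *Rbm3* and *Cirbp* did not pass in any of the 14 classes.

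Summed over all cells of a library, 28.9% of 11947 genes were higher and 29.1% lower after storage (49.9% of calls higher, 76.8% with scaling by library size alone, which moved the median gene by 0.36). In whole-library sums fewer cells of a type and less RNA per cell cannot be told apart. Among genes of at least 50 CPM in either group the largest decreases were of proximal tubule genes: *Hpd*, of tyrosine breakdown, gave 4097, 5199 and 3256 against 91, 94 and 42 UMIs (-4.22, adjusted p = 2.59e-06), followed by *Fitm1* (-4.15), *Apom* (-4.08), *Bhmt* (-4.07), *Cyp4a10* (-4.03), *Slc22a6* (-3.95) and *Miox* (-3.93). All 19 proximal tubule transporters and 17 of 18 fatty acid oxidation genes were lower, although in proximal tubule-like cells themselves transporters split 5 and 5. The largest increases at that level were of *Igkc*, an antibody light chain (3.44), the intercalated cell genes *Aqp6* (3.00) and *Slc4a1* (2.81), complement *C3* (2.58), *Adgrf5* (2.33) and *Klf4* (2.30). *Ren1*, renin, was uneven (1648, 1329 and 1061 against 368, 3049 and 2531 UMIs; 2.16, 0.0185), as was *Fos* (14, 214 and 280 against 272, 426 and 185; 2.34, 0.0147); without cryopreserved replicate 2 these were at 1.79 and 1.99 and did not pass.

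Immediate-early genes were higher in 24 of 26 in these sums, MHC class II genes in 10 of 10 (with *H2-Ob*, which was at 0 in fresh replicate 2), C1q and macrophage genes in 14 of 15 and p53 and apoptosis genes in 10 of 18, whereas in single classes these lists passed in far fewer members, apart from immediate-early genes in macrophage-like cells. Of the mitochondrial genes in these sums, 1 was higher and 4 lower of 7 in complex I and 1 higher and 2 lower of 6 in the other complexes, although their share of all UMIs was higher, as given above; with scaling by library size alone *mt-Atp6* (0.174), *mt-Nd2* (0.140) and *mt-Nd6* (0.0677) turned positive.

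The study held a second cryopreservation experiment on cold-dissociated kidneys, of male C57BL/6J mice of 19 weeks, named AFAPIL.1DEL in the methods of the study, with 10x chemistry of version 2, 6 weeks of storage and 15370 cells. Its cells were spun at 400 g after thawing, against 1200 g for the Balb/c cells, so strain, genotype, sex, age, chemistry, storage time and spin all differ between the experiments and cannot be told apart. The change on storage in whole-library sums differed between experiments in 2327 of 11707 genes by the interaction term of edgeR: 13.6% were more positive and 6.29% more negative in Balb/c. Immediate-early genes were more negative in Balb/c in 20 of 26 and more positive in none, with median log2 changes of 1.49 in Balb/c and 3.47 in C57BL/6J. *Jun* changed by 2.04 and 4.48 (adjusted p of the difference = 0.000474) and *Hspa1a* by 1.25 and 7.59 (1.28e-05). Proximal tubule transcripts were less reduced in Balb/c in 18 of 19. Among them, *Gpx3* changed by -2.63 and -5.52 (0.000191) and *Kap* by -1.89 and -6.46 (4.57e-05). Some genes of both lists had been picked for changes in C57BL/6J cells, so these directions are not independent evidence. Of the genes called in both experiments, 4298 went in the same direction and 101 in opposite directions.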

How the data were processed

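Single-cell suspensions of mouse kidney were profiled by 10x 3′ sequencing. The deposited matrices hold UMI counts per gene and cell, which the authors made with Cell Ranger 2.1.1 on mm10 and filtered for empty droplets, number of genes, mitochondrial share and outliers in UMIs per gene. Seurat 2 is also named in the submitters' processing notes. Genes not listed in all 6 files were left out. The cryopreserved files list genes found in at least 10 cells, while the fresh files share a list that includes genes at 0, some of which may be values under that minimum, so a gene missing from a fresh file has no known limit.

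Counts of the 11947 shared genes were clustered (2000 variable genes, 30 components, 20 neighbours, Leiden resolution 2) after 183 mitochondrial, ribosomal, stress, chaperone, noncoding and abundant proximal tubule genes had been left out. A cluster was named when at least 3 markers were detected in a share of 0.1 of its cells and raised by a fold of 1.5; a pair of clusters led by genes of other cell types was left unnamed after the clusters were seen. The cells most like simulated doublets were marked, at a share fixed at 0.8% per 1000 cells of a library, and removed only in an alternative; that share is therefore no measurement. UMIs were summed per library and, for classes with at least 10 cells in at least 2 libraries of each group, per class, and tested with edgeR 4.0.16 (quasi-likelihood, TMM, adjusted p of 0.05 by Benjamini-Hochberg in each fit); every adjusted p given without another name is from this test. Shares of cells were tested with the same model on cell counts, with the total of all cells, or of named cells outside the proximal tubule, as offset. The difference between experiments was tested as an interaction term. DESeq2 1.42.0, RLE and library-size scaling, no filter on low counts, doublet removal, Leiden resolution 1, naming cells by their own marker score and leaving out each library were alternatives, and code was tested on simulated data. R 4.3.3, limma 3.58.1, Python 3.11.15, numpy 2.4.6, scipy 1.17.1, pandas 2.3.3, scikit-learn 1.9.0, leidenalg 0.10.2, igraph 0.11.9 and matplotlib 3.10.9 were used.

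The comparison, the members and the gene lists were chosen with earlier results of these data known. Genes were named by a rule: stress and hemoglobin genes and genes the study names for cryopreserved cells; the 10 called genes with the largest change in each direction in library sums with at least 50 CPM; up to 10 genes in each direction called in most classes; up to 5 in each direction per class with at least 100 CPM; called members of the lists; and class markers. A few genes of the rule and of the lists are counted but not reported here by name. Other genes were chosen after their values were seen. The study states 3 kidneys of 3 mice per experiment, but the labels do not tie libraries to mice. The respiratory chain and ribosomal lists were assembled after values had been seen. Intervals cover counting error only.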

Additional observations from a re-analysis of the deposited data

Results flagged for a closer look

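The change on storage differed between the Balb/c and the C57BL/6J experiment in 2327 genes by the interaction test of edgeR over library sums, and strain, genotype, sex, age, chemistry, storage time and spin cannot be told apart as sources. All values that follow are the log2 change in Balb/c minus that in C57BL/6J, for genes named by rule. Of 28 such genes tested, the 22 past the test are given here. Among all 11707 genes tested between experiments, 2327 passed. Many of the named genes had been picked for changes in C57BL/6J cells. A larger change there, and with it the signs below, is therefore partly set by that choice and is not independent evidence.

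Among transcription factors of the immediate-early response the differences were -6.35 for *Fos* (2.34 in Balb/c and 8.68 in C57BL/6J, adjusted p = 0.00118), -5.79 for *Atf3*, -3.58 for *Egr1*, -2.74 for *Junb*, -2.44 for *Jun* and -1.56 for *Jund*. Among their companions they were -2.56 for *Dusp1*, -2.03 for *Ier3*, -1.75 for *Ier2*, -1.34 for *Btg2* and -1.12 for *Btg1*. Among chaperones they were -6.34 for *Hspa1a* (1.25 and 7.59, adjusted p = 1.28e-05), -4.13 for *Hspa1b*, -1.45 for *Hspb1* and -0.66 for *Hsp90ab1*, with -1.55 for *Gm10076*.

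Proximal tubule transcripts had differences of the opposite sign: 4.56 for *Kap* (-1.89 and -6.46, adjusted p = 4.57e-05), 3.54 for *Tmem27*, 2.89 for *Gpx3*, 1.79 for *Spink1*, 1.06 for *Fxyd2* and 0.900 for *Akr1a1*.

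A total of 7 genes were listed in all 3 cryopreserved files and in no fresh file, so they entered no comparison. *Fosb*, an AP-1 subunit, had a UMI in 265 of 4274 cryopreserved cells (186, 103 and 70 UMIs per library), among them 74 endothelial-like and 50 macrophage-like cells. *Tnf*, an inflammatory cytokine, had one in 43 cells, 25 of them macrophage-like. *Cd209a*, a dendritic cell lectin, had one in 33 cells, 21 of them in unnamed clusters. *Myrip* had one in 33 cells, all endothelial-like, *Upk3b* in 35 cells, 27 of them thin limb-like, *Pabpc1l* in 35 and *Runx2* in 32.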

How the results depend on the processing

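No paired analysis was possible because the labels do not say which fresh and which cryopreserved library came from the same mouse, and equal replicate numbers were given in accession order. The distribution-free test cannot pass here: by exact permutation 0 of 15 and 0 of 14 class shares passed, since the smallest p is 0.1. With TMM factors added to cell numbers, which assume that most classes keep their share, 6 of 15 shares of all cells (14 in the report) and 4 of 14 outside the proximal tubule (11) passed, and the log2 changes of macrophage-like (-0.0445), podocyte-like (-0.672) and principal cell-like shares (-0.202) changed sign. Leaving out each library in turn gave 13 to 14 shares of all cells and 6 to 8 outside the proximal tubule (6 without fresh replicate 2), a proximal tubule-like log2 change of -3.12 to -2.86, 5998 to 6517 genes in library sums (6932 in the report), 1923 to 3192 calls in class sums (3070; 1923 without cryopreserved replicate 2), 574 to 1016 in proximal tubule-like cells (1139; 574 without cryopreserved replicate 2), 107 to 132 lower proximal tubule transcripts in other classes (132), 11 to 14 immediate-early genes in macrophage-like cells, 11 to 13 classes with higher *mt-Atp8*, and 1882 to 2913 genes that differed between experiments.

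With the thresholds of the study for size of change and share of cells added, calls in class sums came to 27, with 2 in proximal tubule-like cells, 15 proximal tubule transcripts in other classes, 1 immediate-early gene in macrophage-like cells (*Jun*) and *mt-Atp8* in 6 classes; a log2 change of at least 1 left 2550 genes in library sums. Class sums gave 4536 calls with no filter on low counts, 3925 with scaling by library size alone, 2459 by DESeq2, 2593 without doublets, 3160 at resolution 1 and 2659 among cells of at least 1500 UMIs, an alternative chosen after seeing the data. Genes per cell differed by -6.83 at 1000 UMIs and by 183 without thinning. With scaling by library size alone *mt-Atp6* (0.174), *mt-Nd2* (0.140) and *mt-Nd6* (0.0677) in library sums and *Malat1* (-0.0135) and *Rps24* (-0.513) in T cell-like cells changed sign. *Cd74* in proximal tubule-like cells was at -0.341 at resolution 1 and between -0.510 (without cryopreserved replicate 1) and 2.23 when a library was left out. Of 1035 called results for single genes, 533 stayed past the test in each alternative in which that gene was refitted; the thresholds of the study were not applied to single genes, and NK cell-like and T cell-like cells were not refitted at resolution 1. Where no cause is given, it was not tested.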

Other observations

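Some unnamed clusters held about as many or more cryopreserved than fresh cells. The cluster led by *C3*, *Ptgds* and *Igf1* held 223 cells, 118 of them cryopreserved. The cluster whose leading genes include *Naaa* and *Clec9a*, genes of conventional dendritic cells, held 60 cells, 33 of them cryopreserved, and 51.7% of its cells were marked as doublets. The cluster with *Il1rl1* (listed at 0 in fresh replicate 1) and *Il7r*, receptors of innate lymphoid cells, held 66 cells, 41 of them cryopreserved. *S100a9*, a neutrophil gene, gave 719 UMIs in 13 cells of fresh replicate 1, was listed at 0 in the other fresh files, where fewer than 10 cells may have been set to 0, and was listed in no cryopreserved file. *Csf3r*, a receptor of neutrophils, had a UMI in 11 and 20 cells of fresh replicates 1 and 3 and in 13 and 22 cells of cryopreserved replicates 1 and 2.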
